A study of Mus musculus with 2 samples.

Results

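The genes described here steer the first part of the cell cycle, G1, in which a cell either commits to copying its DNA or stops. They are the D cyclins Ccnd1, Ccnd2 and Ccnd3, their kinase partners Cdk4 and Cdk6, the Cip/Kip inhibitors Cdkn1a, Cdkn1b and Cdkn1c, the tumour suppressor Trp53 and its inhibitor Mdm2. The rule that chose them names functions and uses no measured value, although earlier results of these data were known when it was written, and every probe set annotated to one of them alone was taken. Of these 10 genes, 9 had such a probe set, out of 12393 genes in the whole table, and together they had 22 probe sets of 20380. Trp53 had none, so its expression was not analysed here.

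Expression was measured on Affymetrix arrays in the mouse uterus, in the stretches of wall that lie between attached embryos. One array held RNA of Cbs null females, which are homozygous for loss of cystathionine beta-synthase, the enzyme that takes homocysteine into cysteine synthesis. The other array held RNA of control females, whose genotype the labels give no further. All females were 4 months old, on day 8 of pregnancy and of the mixed background C57Bl/6J X OLA129, and the labels do not say whether 1 animal or a pool stands behind an array. The Cbs loss is not restricted to the uterus in the labels, so uterine and systemic effects cannot be told apart. With 1 array in the Cbs null group and 1 in the control group there is no test, no p-value and no replicate check of any difference below.

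D cyclins bind CDK4 or CDK6, and the active kinase phosphorylates the retinoblastoma protein, which releases E2F factors that switch on genes for DNA synthesis. Cip/Kip proteins restrain the cyclin-CDK complexes that follow, and p53 switches on both Cdkn1a and Mdm2, a ubiquitin ligase that in turn removes p53. In the mouse uterus, stromal cells around an implanting embryo leave the mitotic cycle, become polyploid decidual cells and rely on cyclin D3 and p21, the product of Cdkn1a, while loss of uterine Trp53 is known to bring on early decidual senescence.

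The arrays had nearly the same scale, with a median signal of 75.6 on the Cbs null array and 74.55 on the control array. Signals at or under a floor of 43.2 array units, the 40th percentile of both arrays together, have no reliable order and were raised to it. A gene above the floor on at least 1 array was called measured, which held for 8408 genes, and each gene was represented by its brightest probe set unless said otherwise. Ratios are given as log2, Cbs null divided by control, and their median over all measured genes was 0.02. The brightest 2 probe sets of the same gene, compared over 2757 genes, gave a within-array SD of 0.22 for a log2 ratio, which does not cover variation between mice. That SD was 0.15 where both probe sets were bright, at 4 times the floor or more. The genotype check was weak: Cbs read 42.6 on the Cbs null array, just under the floor, and 79.8 on the control array, and it is not known whether the probes lie in the altered part of the gene.

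Of the 9 genes with a probe set, 8 were above the floor on both arrays and Cdk6 was below it on both. None of the 8 was at least 2-fold apart, a size that 1.51% of measured genes reached. Ccnd1 was the 1 member at least 1.5-fold lower, where the background was 3.39% of measured genes, and 0 members were at least 1.5-fold higher, where the background was 3.59%. By gene, 4 members were lower and 4 higher in the Cbs null sample, where 46.5% of measured genes were lower and 53.3% higher, and their median log2 ratio was 0.00. Those counts are near the background. The lower 4 were the 3 D cyclins and Cdk4, which differed by only 0.01 in its brightest probe set. The higher 4 were the 3 Cip/Kip genes and the brightest Mdm2 probe set. Of the higher 4, Cdkn1b alone kept its side of 0 under every alternative setting that was run, but several settings could not have changed it. Its brightest probe set lies above every floor used and is kept in every setting. In the mean over probe sets, its other probe set was under the floor and counted as 0.

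**Figure D1:**
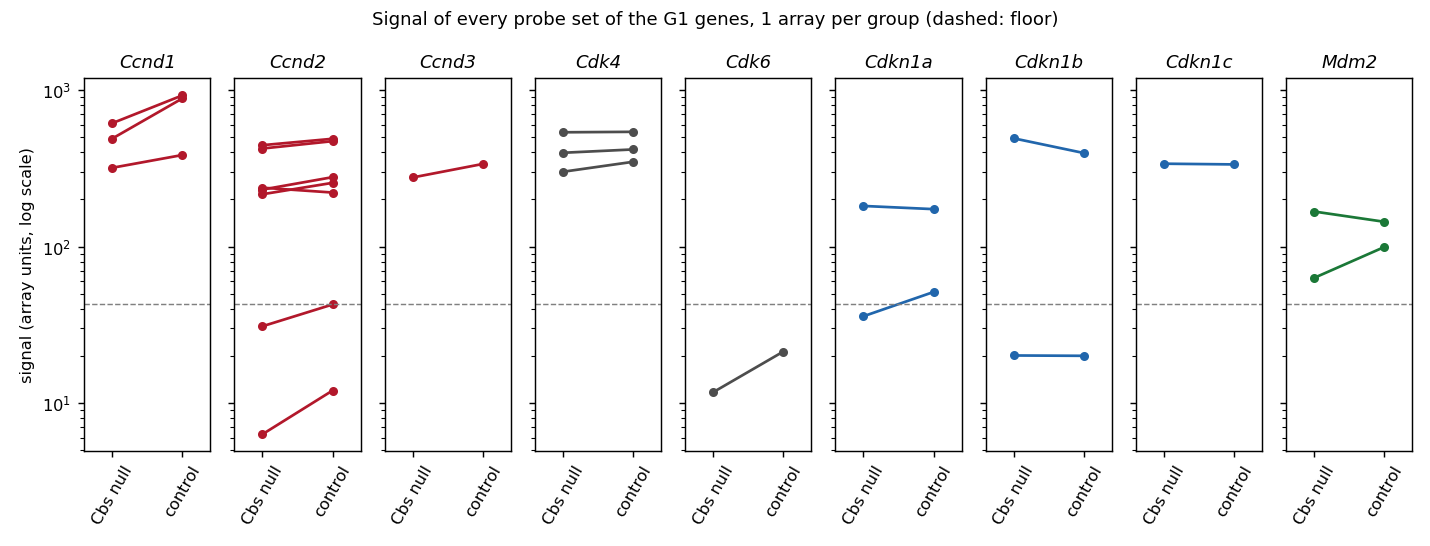
Signal of each probe set (array units, log scale) on the Cbs null array (left in each panel) and on the control array (right), 1 line per probe set, with the floor of 43.2 dashed. All 3 Ccnd1 lines lie lower on the Cbs null side, Cdk4 and Cdkn1c are close to level, and Cdk6 lies wholly under the floor.

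Ccnd1, cyclin D1, a common target of growth factor and WNT signals, was lower in the Cbs null sample in all 3 of its probe sets. Probe set 1417420_at, the brightest, read 614.4 on the Cbs null array and 925.8 on the control array, a log2 ratio of -0.59, or 1.51-fold lower. Probe set 1448698_at read 489.7 on the Cbs null array and 885.5 on the control array, 1.81-fold lower. Probe set 1417419_at read 318.7 on the Cbs null array and 384.7 on the control array, 1.21-fold lower. The 3 probe sets thus shared a direction but not a size, with a mean log2 ratio of -0.57 ± 0.29 (SD over 3 probe sets, which share a transcript and are not biological replicates). The brightest value lay 2.75 within-array SDs below 0, and 2.87% of genes above the floor on both arrays had a lower ratio. Among 897 genes with 3 or more probe sets above the floor on both arrays, 17.9% had all of them lower in the Cbs null sample, and 9 of the 897, Ccnd1 included, had a mean at or below that of Ccnd1.

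Ccnd3, cyclin D3, which is the D cyclin tied to decidual polyploidy, had a single probe set. It read 276.4 on the Cbs null array and 337.3 on the control array, a log2 ratio of -0.29, or 1.22-fold lower. That is 1.33 within-array SDs, and 12.2% of genes above the floor on both arrays had a lower ratio, so the difference was of a size common on these arrays. One of its promoter windows in RefSeq (GRCm38.p6) holds a CCAAT box, the letters that the factor NF-Y binds. A 45-base stretch of it, at chr17:47593339-47593383 on the plus strand, is shown because CCAAT boxes recur in the promoters of cell cycle genes. Cdkn1b, which lay on the other side of 0, shares the box, and so do the windows of Mdm2 and Trp53. The capitals mark the box of Ccnd3.
Ccnd3: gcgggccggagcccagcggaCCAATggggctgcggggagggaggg

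Ccnd2, cyclin D2, known for driving division of ovarian granulosa cells, had 7 probe sets, the most of any member, and differed little. Probe set 1434745_at, the brightest, read 444.7 on the Cbs null array and 488.6 on the control array, 1.10-fold lower. Of the 5 probe sets above the floor on both arrays, 4 were lower and 1 higher, from -0.26 for 1455956_x_at to 0.10 for 1430127_a_at. Their mean log2 ratio was -0.14 ± 0.15 (SD over 5 probe sets). The suffixes _x_at and _s_at mark probe sets whose probes may also bind other transcripts, and _a_at those that match several transcripts of the same gene. The remaining 2 were under the floor on both arrays, 1416123_at at 30.9 on the Cbs null array and 42.6 on the control array, and 1416124_at at 6.3 on the Cbs null array and 12.0 on the control array.

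Across the 3 D cyclins, 8 of 9 probe sets above the floor on both arrays were lower in the Cbs null sample, with a median log2 ratio of -0.26. Over all such probe sets on the arrays, 46.9% were lower. Probe sets of 1 gene are not independent, and these come from 3 genes. By gene, all 3 were lower, where 46.5% of measured genes were. Those 9 are all the measured probe sets of the D cyclins. Of them, 2 were at least 1.5-fold lower, both of Ccnd1, where the background was 3.43% of measured probe sets. The ratio of Ccnd1 was below that of Ccnd2 by a difference of -0.46 and below that of Ccnd3 by a difference of -0.30, set against a within-array SD of 0.30 for a difference between 2 genes. The order of the D cyclins by ratio was therefore Ccnd1, Ccnd3, Ccnd2, and neither step between neighbours, 0.30 and 0.15, exceeded that SD. That SD comes from genes of every brightness. The brightest probe sets of the D cyclins were all above 4 times the floor, where the SD of a single ratio was smaller, at 0.15.

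Marker genes of several cell types also differed in signal between the samples. Summed signals below run over all genes of a list with a probe set. Over all measured genes, 46.5% were lower and 53.3% higher. Smooth muscle markers were lower in the Cbs null sample in 8 of 8 genes, with a summed signal of 31404 on the Cbs null array and 38775 on the control array. Epithelial markers were higher in 10 of 10 genes, with sums of 6041 on the Cbs null array and 3942 on the control array, and macrophage markers in 9 of 9, with 3791 on the Cbs null array and 2506 on the control array. Decidual markers were lower in 5 of 7 measured genes, with sums of 885 on the Cbs null array and 2900 on the control array. Tdo2, Prl8a2 and Fst were at least 2-fold lower, while Bmp2 and Wnt4 were higher. Natural killer cell markers were lower in 4 of 5, with sums of 304 on the Cbs null array and 543 on the control array. Only Gzma and Gzmb were at least 2-fold lower. Prf1 and Klrd1 had log2 ratios of -0.22 and -0.11, and Nkg7 was higher at 0.09. Stromal markers were split evenly, 4 higher and 4 lower, with sums of 35562 on the Cbs null array and 37802 on the control array. Endothelial markers were higher in 4 of 7 genes, with sums of 2002 on the Cbs null array and 1938 on the control array, and of 5 trophoblast genes on the array 0 were above the floor, the highest at 16.5 on the Cbs null array and 24.0 on the control array. No marker read 0 on both arrays. The part of these differences in the Ccnd1 value was not tested, and fewer cells of a type and less RNA per cell cannot be told apart in whole tissue.

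**Figure D2:**
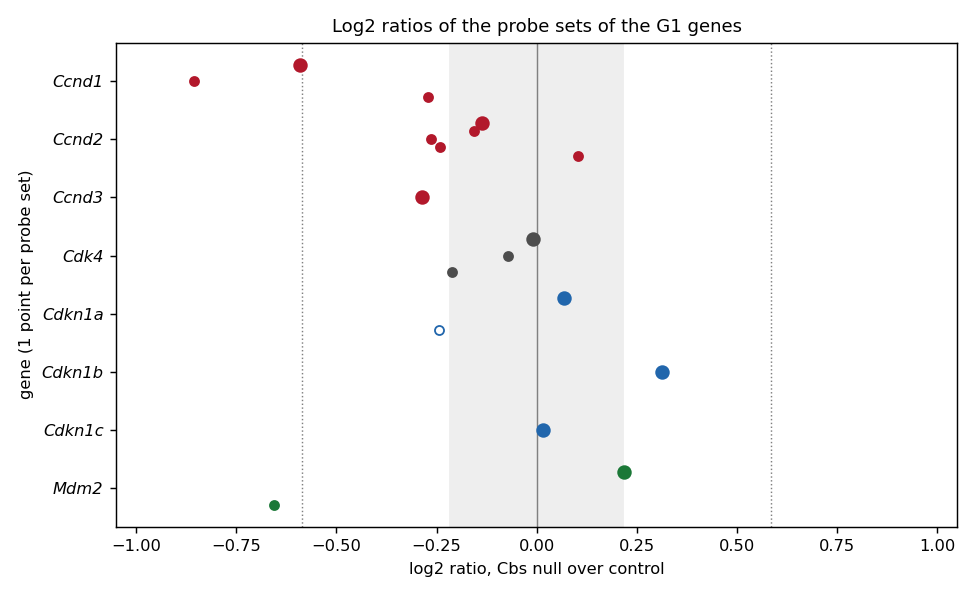
Log2 ratio of Cbs null over control for each measured probe set, by gene. The larger point is the gene's brightest probe set, the open point of Cdkn1a was above the floor on 1 array only, the grey band spans ±0.22, the within-array SD, and dotted lines mark 1.5-fold. Beyond a dotted line lie 2 Ccnd1 probe sets and 1 Mdm2 probe set, all on the lower side.

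Cdk4, the kinase that D cyclins activate, was close to level. Probe set 1422441_x_at read 537.6 on the Cbs null array and 541.3 on the control array, and 1422439_a_at read 397.6 on the Cbs null array and 417.6 on the control array. The brightest, 1422441_x_at, carries the suffix for probes that may also bind other transcripts. Probe set 1422440_at, the 1 without an _x_at or _a_at suffix, read 300.6 on the Cbs null array and 348.1 on the control array. Its log2 ratio was -0.21, or 1.16-fold lower. All 3 were on the lower side, with a mean of -0.10 ± 0.10 (SD over 3 probe sets), within the within-array SD. Cdk6, the alternative partner, had a single probe set that read 11.7 on the Cbs null array and 21.3 on the control array, both under the floor, so no ratio is given.

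The promoter of Cdk4 is a known binding site of MYC, which recognises the E-box CACGTG, and it is shown because few promoter windows hold as many E-boxes. The 192-base stretch at chr10:127063343-127063534 on the plus strand (RefSeq, GRCm38.p6) holds 4 E-boxes, in capitals.
Cdk4: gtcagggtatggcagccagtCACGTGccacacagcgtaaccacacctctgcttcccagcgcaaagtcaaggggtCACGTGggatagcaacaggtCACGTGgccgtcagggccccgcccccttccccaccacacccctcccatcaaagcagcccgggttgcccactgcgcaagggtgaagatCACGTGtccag
The palindrome CACGTG occurred in 6.02% of 32851 RefSeq promoter windows, each taken as the 250 bases before an annotated start, and 4 or more times in 7 of them. Myc itself, named for this role after its value was seen, read 428.8 on the Cbs null array and 363 on the control array, a log2 ratio of 0.24. A match in letters is a description and not evidence of binding in this tissue.

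Cdkn1b, which encodes p27, an inhibitor that holds cells in quiescence, had the highest ratio of the members. Probe set 1434045_at read 491.9 on the Cbs null array and 396.1 on the control array, a log2 ratio of 0.31, or 1.24-fold higher, which is 1.45 within-array SDs. Of genes above the floor on both arrays, 88.0% had a lower ratio. The second probe set, 1419497_at, read 20.1 on the Cbs null array and 20 on the control array, under the floor on both, so the value rests on 1 probe set. The Cdkn1b promoter carries 2 CCAAT boxes, shown in capitals in the 171 bases at chr6:134920220-134920390 on the plus strand (RefSeq, GRCm38.p6), for comparison with the single box of Ccnd3.
Cdkn1b: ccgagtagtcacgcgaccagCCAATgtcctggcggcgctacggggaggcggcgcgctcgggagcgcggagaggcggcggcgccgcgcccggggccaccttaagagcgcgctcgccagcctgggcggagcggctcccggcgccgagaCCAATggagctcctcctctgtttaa
CCAAT on either strand occurred in 33.8% of all windows, so its presence in both genes is common.

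Cdkn1a, which encodes p21, the main p53-induced CDK inhibitor, was nearly level. Probe set 1424638_at read 181.7 on the Cbs null array and 173.4 on the control array, a log2 ratio of 0.07. Probe set 1421679_a_at was under the floor on the Cbs null array at 35.8 and above it on the control array at 51.2, at least 1.19-fold lower, so the weaker probe set went the other way within the range of dim signals. The window before one of the annotated starts of Cdkn1a holds a match to the p53 element, shown because other p53 targets are described below. The 60 bases lie at chr17:29090908-29090967 on the plus strand (RefSeq, GRCm38.p6), with the element in capitals.
Cdkn1a: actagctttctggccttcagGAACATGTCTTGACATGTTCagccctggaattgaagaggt
The p53 element was searched as 2 adjacent half-sites of the consensus with no spacer and at most 1 letter off. The fixed C and G of each half-site had to be kept, and the form reads the same on either strand. It occurred in 19 of 32851 windows, or 0.0578%, and among the 7 members with a window in this Cdkn1a window only. The form searched was set after a search with a spacer had been seen, so this share was not fixed in advance. A match to the element is not evidence that p53 binds there in this tissue. Ccnd1, Ccnd2 and Cdkn1c had no window, and bases outside the windows were not searched.

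Cdkn1c, which encodes p57, an imprinted inhibitor expressed from the maternal copy and abundant in cells that have left the cycle, had a single probe set. It read 338.5 on the Cbs null array and 335 on the control array, a log2 ratio of 0.01, the smallest difference among the Cip/Kip genes. Of 8 other genes of its imprinted cluster with a probe set, 5 were measured, 3 higher and 2 lower, with a median log2 ratio of 0.05. The brightest were Cd81, a tetraspanin, at 2543 on the Cbs null array and 2905 on the control array, and the histone chaperone gene Nap1l4 at 577.6 on the Cbs null array and 557.7 on the control array.

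The 3 Cip/Kip genes were all on the higher side by their brightest probe set, with a median log2 ratio of 0.07, but over all measured genes 53.3% were higher too, and Cdkn1a and Cdkn1c crossed 0 under 1 alternative setting each. The ratio of Ccnd1 was below that of Cdkn1b by a difference of -0.90, the widest gap between 2 members. These are the lowest and the highest of the 8 measured members, picked after their values were seen. The SD of 0.30 holds for a pair fixed in advance and does not gauge such a gap. Because both values come from the same pair of arrays, this gap does not depend on a common scaling factor.

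Mdm2 had 2 probe sets that disagreed. Probe set 1423605_a_at read 167.4 on the Cbs null array and 143.9 on the control array, 1.16-fold higher. Probe set 1427718_a_at read 63.0 on the Cbs null array and 99.3 on the control array, 1.58-fold lower. The log2 ratios lay 0.87 apart, and of 2757 genes with 2 or more probe sets above the floor on both arrays, 1.41% had their 2 brightest at least that far apart. Both probe sets carry the suffix for several transcripts of the gene, and Mdm2 is transcribed from more than 1 promoter, but which transcripts each probe set reads was not tested. No direction is therefore given for Mdm2.

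**Figure D3:**
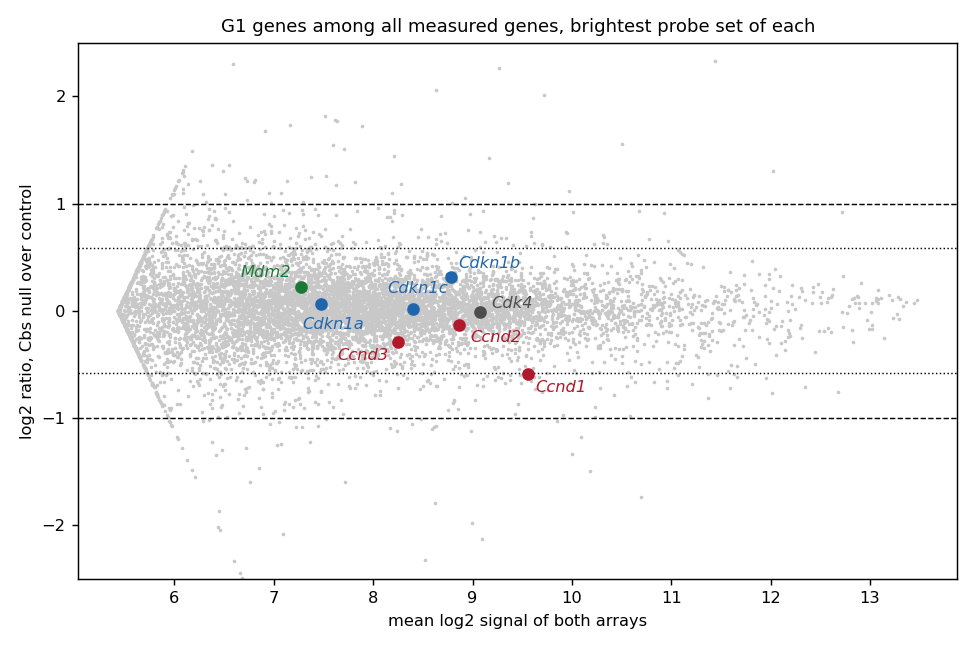
Log2 ratio of Cbs null over control against the mean log2 signal of both arrays, 1 point per measured gene (grey), with the 8 measured members in colour. Dashed lines mark 2-fold and dotted lines 1.5-fold, and 13 genes lie outside the plotted range of ±2.5. The members sit inside the grey cloud, with Ccnd1 toward its lower edge.

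Other genes of the pathway were described by lists, to be read beside all measured genes, of which 46.5% were lower and 53.3% higher. A gene above the floor on the control array alone can only count as lower, which applies to 2 of the S phase genes, 2 of the G2 and mitosis genes, 1 gene each of the p53 regulators, p53 targets and decidual growth regulators, 3 decidual markers and 2 natural killer cell markers. Likewise 2 epithelial markers were above it on the Cbs null array alone and can only count as higher. Of the INK4 inhibitors, which block CDK4 and CDK6 directly, 3 of 4 genes with a probe set were measured and 0 were at least 1.5-fold apart, with a median log2 ratio of -0.08. Cdkn2c, which encodes p18, read 266.9 on the Cbs null array and 281.4 on the control array, and Cdkn2d, which encodes p19, read 94.8 on the Cbs null array and 105.5 on the control array. Cdkn2a, the locus of p16 and ARF, named for its role after its value was seen, was under the floor on both arrays.

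The cyclin E and CDK2 axis carries cells across the border into S phase. Of its 14 genes, 12 were measured, 5 higher and 7 lower, with a median of -0.03. Ccna2, cyclin A2, which drives S phase with CDK2, was the 1 gene at least 1.5-fold lower, where the background was 3.39% of measured genes. It read 59.8 on the Cbs null array and 95.5 on the control array, 1.60-fold lower, and its second probe set was 1.27-fold lower. Both probe sets lay under 4 times the floor, and the within-array SD was 0.26 where the weaker probe set was that dim. Ccne1 and Ccne2, named as the E cyclins themselves after their values were seen, were under the floor on both arrays. Cdk2, the kinase they activate, likewise named with its value known, read 168 on the Cbs null array and 131.2 on the control array.

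Of the pocket proteins and E2F factors, 8 of 13 genes with a probe set were measured, 5 higher and 3 lower, with a median of 0.11 and 0 genes at least 1.5-fold apart. The median was -0.14 when probe sets with the suffixes _s_at, _x_at and _a_at were left out. Tfdp1, the partner of E2F proteins, read 338.2 on the Cbs null array and 369 on the control array. Rbl2, the p130 pocket protein of quiescent cells, read 269.5 on the Cbs null array and 229.1 on the control array, and its 2 probe sets were both higher.

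Among the S phase genes, 11 of 18 measured were lower and 7 higher, with a median of -0.10, or -0.30 without the suffixed probe sets. Rrm2, the ribonucleotide reductase subunit whose level limits the supply of DNA precursors, was the 1 gene at least 2-fold lower, where the background was 0.714% of measured genes. It read 164 on the Cbs null array and 819.4 on the control array, a log2 ratio of -2.32, and its other probe sets were 5.51-fold and at least 5.12-fold lower. Decidual markers were mostly lower in the same sample, as given above, and their part in the Rrm2 value was not tested. Rrm1, the partner subunit, read 130.8 on the Cbs null array and 202.1 on the control array, 1.55-fold lower, and its second probe set had a log2 ratio of -0.59. At least 1.5-fold lower were thus 2 of the 18, where the background was 3.39%. The remaining 16 measured genes were within 1.5-fold, and Pcna and Mcm7, named here with their values known, had log2 ratios of 0.01 and 0.36.

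Of the G2 and mitosis genes, 10 of 15 with a probe set were measured, 6 lower and 4 higher, with a median of -0.07, or -0.23 without the suffixed probe sets. Cdk1, the kinase of mitotic entry, was the 1 gene at least 1.5-fold lower, where the background was 3.39% of measured genes. It read 82.5 on the Cbs null array and 135.8 on the control array, 1.65-fold lower, on a single probe set under 4 times the floor. Mki67, a general mark of cycling cells picked out after its value was seen, read 154.1 on the Cbs null array and 142.1 on the control array, on the other side of 0.

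Regulators of p53 were balanced, with 7 of 14 measured genes higher and 7 lower, a median of 0.00 and 0 genes at least 1.5-fold apart. Cop1, a ubiquitin ligase of p53, read 614 on the Cbs null array and 642 on the control array, and Usp7, which deubiquitinates p53 and Mdm2, read 562.2 on the Cbs null array and 557 on the control array. Of known p53 target genes, 18 of 23 with a probe set were measured, 13 higher and 5 lower, with a median of 0.18, where 53.3% of all measured genes were higher. At least 1.5-fold apart were 2 of the 18, both higher, where the background in that direction was 3.59%. Perp, a p53 and p63 target that is also a desmosome protein of epithelia, was at least 1.5-fold higher at 382.1 on the Cbs null array and 207.9 on the control array, 1.84-fold. Btg2, an antiproliferative gene, read 754.9 on the Cbs null array and 484.4 on the control array, 1.56-fold higher, and its second probe set was 1.24-fold higher. On the lower side, Phlda3 and Zmat3, named with their values known, had log2 ratios of -0.56 and -0.29. Epithelial markers were higher in the same sample, as given above, and their part in the Perp value was not tested. Cdkn1a, at 0.07, lay nearer 0 than the list's median.

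**Figure D4:**
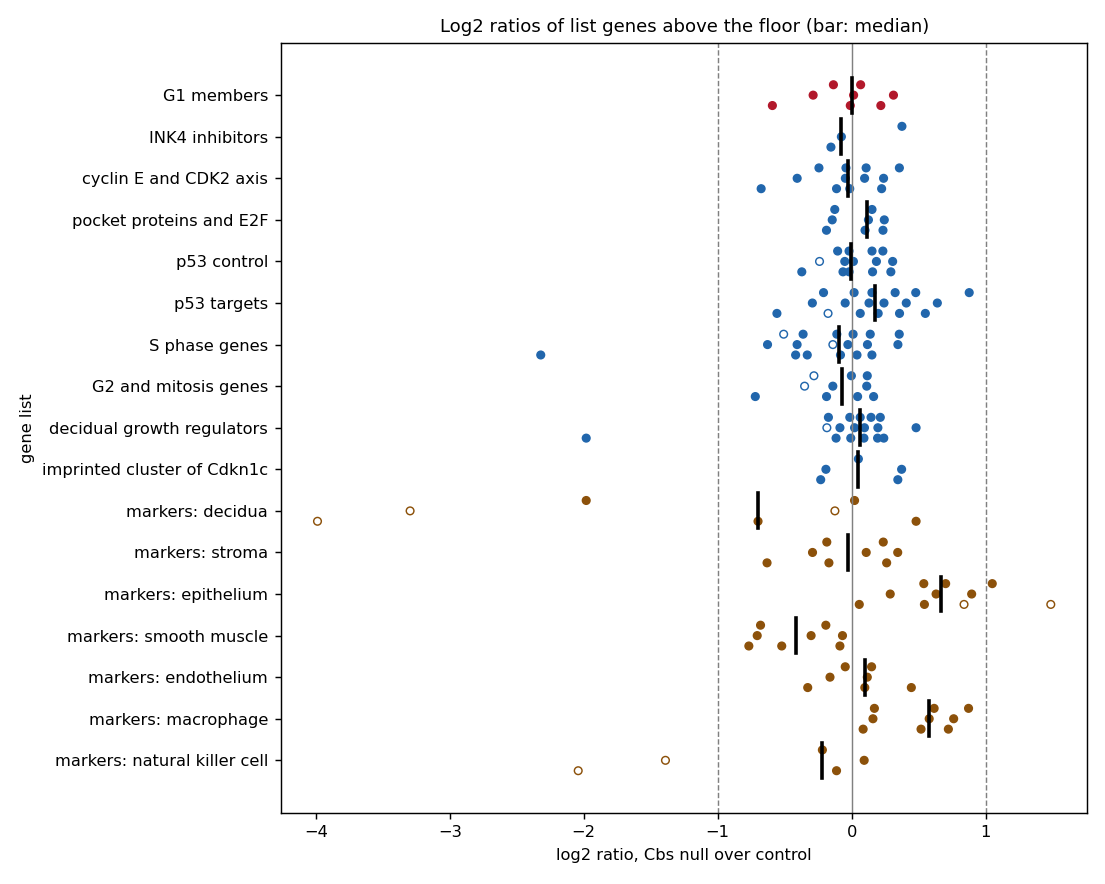
Log2 ratio (Cbs null over control) of each measured gene, by list, with the median as a black bar and dashed lines at 2-fold. Open points are genes above the floor on 1 array only. Medians of the G1 members and the pathway lists lie between -0.10 and 0.18, while those of the decidual and smooth muscle markers lie lower, at -0.70 and -0.41, and those of the epithelial and macrophage markers higher, at 0.67 and 0.58.

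Factors that act on the G1 genes during decidual growth were mostly level. Of 17 measured genes of that list, 10 were higher and 7 lower, with a median of 0.06. Fst, follistatin, which binds activin, was the 1 gene at least 2-fold apart, where the background was 1.51% of measured genes. Fst read 256.2 on the Cbs null array and 1012 on the control array, 3.95-fold lower, and also stands among the decidual markers above. Hoxa10, a homeobox factor that stromal proliferation depends on, and Hbegf, a growth factor that induces Ccnd3 in stromal cells, were named with their values known and had log2 ratios of 0.19 and 0.06.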

How the data were processed

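The authors deposited a linear intensity for each probe set on each array, made from biotin-labelled cRNA. GCOS 1.4 is named in the submitters' processing notes, while for summarisation and scaling the method is not given in the sources used here. Trimmed means (2%) were 200.07 for Cbs null and 200.08 for control, so values were used as deposited. The platform annotation gave 1 gene for 20380 probe sets, several for 691 and none for 1555, beside 64 array controls. A gene was represented by its probe set of highest mean log2 signal. Log2 ratios were computed in Python 3.11.15 with numpy 2.4.6 and pandas 2.3.3, and the steps were tested on simulated data. With 1 array per group no test was made, and the number of arrays limits the precision. Named genes were the 10 members. From each other list except the cell type markers, the rule took up to 4 genes at least 2-fold apart, then up to 4 at least 1.5-fold apart. Where none was, it took the 2 brightest. Others are said to be named with their values known. The rule was not applied to the marker lists, which were described by counts and sums. The decidual and natural killer cell markers named there were picked with their values known. The members and lists were chosen with earlier results of these data known. RefSeq promoter windows (GRCm38.p6) matched 7 of the 10 members; the form of the p53 element was set after a search with a spacer had been seen.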

Additional observations from a re-analysis of the deposited data

How the results depend on the processing

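The alternatives were centring, a pseudocount of 16, a floor at the 20th or the 60th percentile, quantile normalization, the mean over probe sets and leaving out probe sets with the suffixes _s_at, _x_at and _a_at. Under all 7, Ccnd1 (-0.61 to -0.57), Ccnd2 (-0.16 to -0.10), Ccnd3 (-0.31 to -0.27) and Cdk4 (-0.21 to -0.01) stayed lower and Cdkn1b (0.16 to 0.31) higher, whereas Cdkn1a (-0.09 to 0.07) and Cdkn1c (-0.01 to 0.01) crossed 0. For the D cyclins and Cip/Kip genes, neither floor nor the suffix filter could change the value, since the brightest probe set is unsuffixed and above both floors. The mean could not change it for Ccnd3 and Cdkn1c, which have 1 probe set each. Probe sets under the floor entered the means of Ccnd2 and Cdkn1b as 0. A kept side is therefore partly built in. Mdm2 was -0.22 with the mean over probe sets and had no value without the suffixed ones. The number of members past the threshold was 1 at 1.5-fold. Without the suffixed probe sets, medians were -0.14 against 0.11 for the pocket proteins and E2F factors, -0.30 against -0.10 for S phase genes, -0.23 against -0.07 for G2 and mitosis genes and -0.14 against 0.00 for the members; the cause was not tested. The members' median was -0.10 with the mean over probe sets. All measured genes past the threshold numbered 67 higher and 60 lower at 2-fold, 302 and 285 at 1.5-fold, 16 and 22 at 3-fold, 242 and 214 under the 20th-percentile floor, and 30 and 31 under the 60th. No paired analysis was possible because each group has 1 array, and for the same reason no replicate could be left out.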
